A study of Cavia porcellus with 30 samples.

Results

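Among 25824 transcripts measured in guinea pig liver, 474 were abundant in vehicle livers and held a larger share of the RNA 33 h after a high dose of thioacetamide, with no fall below a set bound at 9 h. They were chosen on TPM, a level corrected for transcript length and scaled to the same fixed total in each library. A member had a mean of at least 50 TPM over the 10 vehicle animals. Its ratio of high dose to vehicle means (with 0.1 TPM added to each mean) was over 0.67 at 9 h, written R9, and at least 1.5 at 33 h, written R33. Of the 1619 transcripts that reached 50 TPM, 484 had an R33 of at least 1.5, and 10 of these were left out by their R9. The vehicle and high dose animals therefore chose the members, and their values are given below as a description. No low dose animal took part in the choice, so the change between low dose livers at 9 h and at 33 h is the comparison that was tested.

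All animals were Hartley guinea pigs, an outbred laboratory breed. They received saline (3 ml/kg) or thioacetamide at 25 mg/kg (low dose) or 100 mg/kg (high dose), and livers were taken at 9 h or 33 h. This gave 6 groups of 5 animals, 1 library each. The stated purpose was to produce different degrees of liver injury. The sources used here give no age, sex or batch.

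Most RNA of a healthy liver comes from hepatocytes, and a small set of genes for secreted plasma proteins and for metabolism supplies much of it. Thioacetamide is oxidised by liver enzymes to reactive products that bind protein and kill hepatocytes, mainly around the central veins. In injured and regenerating liver, transcripts of specialised hepatocyte function commonly lose share while those of stress response, protein turnover, the cytoskeleton, repair and entering cells gain it. A whole liver library shows only shares of RNA, so fewer cells of a type and less RNA per cell cannot be told apart in any result below. The files name transcripts by Ensembl identifier and do not pair them with gene names, so the members are described by level, length, time course and dose, and 4 are given by identifier. For the same reason the tissue was not checked against liver marker genes.

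Library totals ran from 21352824 to 33842322 estimated counts. Every member and all 1145 other abundant transcripts passed the count filter, and 18239 transcripts were tested in all. The lowest estimated count of any member in any library was 1.14, and 11 of the 474 members had under 100 estimated counts in at least 1 library. Library scaling by TMM, which sets a typical transcript to no change, gave factors of 0.869 ± 0.0281 in vehicle, 1.09 ± 0.0896 in low dose and 1.32 ± 0.0840 in high dose livers at 33 h (SD, n = 5 each). TPM and TMM therefore give different zero points at 33 h, and both are given where they part.

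In TPM, abundant transcripts lay on both sides of vehicle at 33 h after the high dose, and fewer were under it than not. With TMM most abundant transcripts were under vehicle. The TMM log2 fold change was above 0 in 432 of the 474 members but in only 7 of the 1145 other abundant transcripts. Of those 1145, which the rule set apart, 1000 (87.3%) passed the test as lower, where 22.5% of all tested transcripts passed. Of the 1619 abundant transcripts, 749 (46.3%) had an R33 under 1 and 460 had one at or under 0.67. The 474 members were 29.3% of the abundant transcripts. Their median R33 was 1.91, with quartiles of 1.69 and 2.26, while the other 1145 abundant transcripts had a median of 0.80, with quartiles of 0.52 and 1.09. The rule left nearly all abundant transcripts with an R33 of 1.5 or more out of those 1145, which lowers their median. The median over all tested transcripts was 1.59, so the R33 of 1.5 that admits a member lies below the ratio of a typical liver transcript. Most members sat near the bound: 284 had an R33 under 2, 144 lay between 2 and 3, 36 between 3 and 5, and 10 above 5. The 3 members nearest the R33 bound were at 1.5012, 1.5033 and 1.5033, and the 3 nearest transcripts outside it at 1.4896, 1.4897 and 1.4904. At the bound on R9 the nearest member was at 0.6718 and the nearest transcript outside at 0.6364, and at the bound on level they were at 50.15 and 49.97 TPM.

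The summed level of the members showed the late shift animal by animal. The members held 9.25%, 9.55%, 9.88%, 10.7% and 10.1% of all TPM in vehicle animals at 9 h, and 10.6%, 10.1%, 9.93%, 9.60% and 9.70% at 33 h. In high dose animals they held 11.1% to 11.7% at 9 h and 21.8%, 21.2%, 23.6%, 19.1% and 15.9% at 33 h. In low dose animals they held 11.1% to 12.5% at 9 h and 14.1%, 14.8%, 12.4%, 17.0% and 13.5% at 33 h. The high dose animals at 33 h lay above all others except that high dose animal 5 was below low dose animal 4. The other abundant transcripts, set apart by the same rule, went from 78.3 ± 0.958% of TPM in vehicle livers at 33 h to 69.5 ± 3.58% in low dose and 59.6 ± 3.73% in high dose livers (SD, n = 5 each). Transcripts under 50 TPM held the rest, 11.7 ± 0.650%, 16.2 ± 1.93% and 20.2 ± 0.999% in the same groups (SD, n = 5 each). Shares of a fixed total are tied to one another, so these 3 changes are not separate findings.

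**Figure D1:**
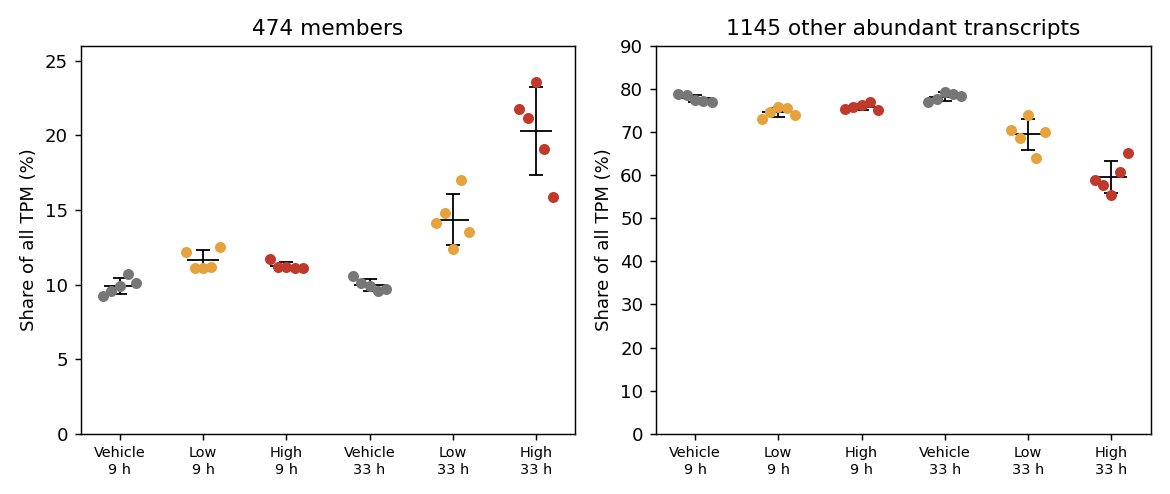
Share of all TPM (%) held by the 474 members (left) and by the 1145 other abundant transcripts (right), 1 point per animal, with the group mean as a line and the SD as bars (n = 5). The members lie between 15.9% and 23.6% in high dose livers at 33 h and between 9.60% and 10.6% in vehicle livers of that time, while the other abundant transcripts lose share in the same animals.

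No single transcript made up the gain. The difference of member means between high dose and vehicle livers at 33 h summed to 103146 TPM, and 54 members held 50% of it. The 10 largest differences held 23.4% and the largest alone 6.69%. By level, 250 members lay at 50 to 100 TPM in vehicle livers, 153 at 100 to 300, 61 at 300 to 1000 and 10 above 1000. Median R33 in these classes was 1.95, 1.86, 1.85 and 1.84. The rule cut R33 at 1.5 in every class, which draws these medians together, so no conclusion on level is drawn from them. Low dose calls between 9 h and 33 h (edgeR quasi-likelihood, TMM, adjusted p under 0.05) did differ among the classes. Rises were 35.2%, 18.3%, 13.1% and 10% of members, and falls 13.6%, 11.8%, 0% and 0%. Whether this difference is particular to the members was not tested.

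How many of these ratios mark a rise depended on the zero point. In the model of all animals with TMM scaling, 250 of the 474 members passed the edgeR quasi-likelihood test as higher in high dose livers at 33 h, where 28.2% of all tested transcripts passed. With library totals in place of TMM, 469 passed against a background of 56.8%. The rule used this contrast, so nothing is read from either count. The members' median log2 fold change was 0.30 with TMM and 0.91 with library totals, and 42 members were below 0 with TMM, the lowest at -0.05. The shift between the scalings was as large over all transcripts, whose median moved from 0.09 to 0.70. The other abundant transcripts had a median of -0.96 with TMM and -0.36 with library totals. Of the 474 members, 103 kept a ratio of at least 1.5 in TMM-scaled CPM (counts scaled to a common library size), and each of these had a TPM ratio of at least 2.35. In TPM the 5 high dose animals did not overlap the 5 vehicle animals for 441 members, where 45.3% of all tested transcripts lay above without overlap. A higher share of RNA is what the rule required of every member, and a level 1.5 times higher relative to a typical transcript was met by the 103.

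In low dose livers, whose animals did not choose the members, 125 of the 474 members rose and 52 fell between 9 h and 33 h, and 297 did not pass the test (edgeR quasi-likelihood, TMM, adjusted p under 0.05 over 18239 transcripts). Those are 26.4% and 11% of the members. Over all tested transcripts 13.6% were higher and 12.7% lower. Among the 1145 other abundant transcripts 117 (10.2%) rose and 255 (22.3%) fell. The members' median log2 fold change was 0.11, with quartiles of -0.07 and 0.28, that of the other abundant transcripts -0.11 and that of all tested transcripts 0.00. Changes were small: of the members called, 8 rose at least 2-fold and 8 fell at least 2-fold. Of all 18239 tested transcripts 339 rose and 670 fell that far, and of the 1145 other abundant ones 6 and 26. The 2-fold rises therefore do not set the members apart from all tested transcripts. In TPM, 405 of 474 members (85.4%) had a higher mean at 33 h than at 9 h. So did 64.3% of the other abundant and 69.1% of all tested transcripts. The median ratio was 1.27 in the members, 1.09 in the other abundant and 1.17 in all tested transcripts. Values of the low dose animals did not overlap between the times for 144 members above and 14 below, 30.4% and 2.95%, where the same was seen for 17.3% and 3.50% of all tested transcripts.

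The direction of these low dose calls held across scalings, but the balance moved. With library totals 186 members were higher and 34 lower, against 20.6% and 7.75% of all tested transcripts, so that rises were 84.5% of member calls rather than 70.6% with TMM. Among the 1145 other abundant transcripts the balance turned, with 231 (20.2%) higher and 182 (15.9%) lower. All 125 members called higher with TMM were among the 186, and the 34 called lower were all among the 52. Time after dosing and the course of the low dose cannot be separated in this comparison. In vehicle livers, 236 of the 474 members (49.8%) had a higher mean TPM at 33 h than at 9 h. The same held for 62.8% of the other abundant and 39.5% of all tested transcripts. With TMM the log2 fold change was above 0 in 314 members (66.2%), 75.6% of the other abundant and 48.8% of all tested transcripts. Vehicle animals took part in the choice, and a low vehicle mean at 33 h favours membership, so nothing is read from these counts.

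**Figure D2:**
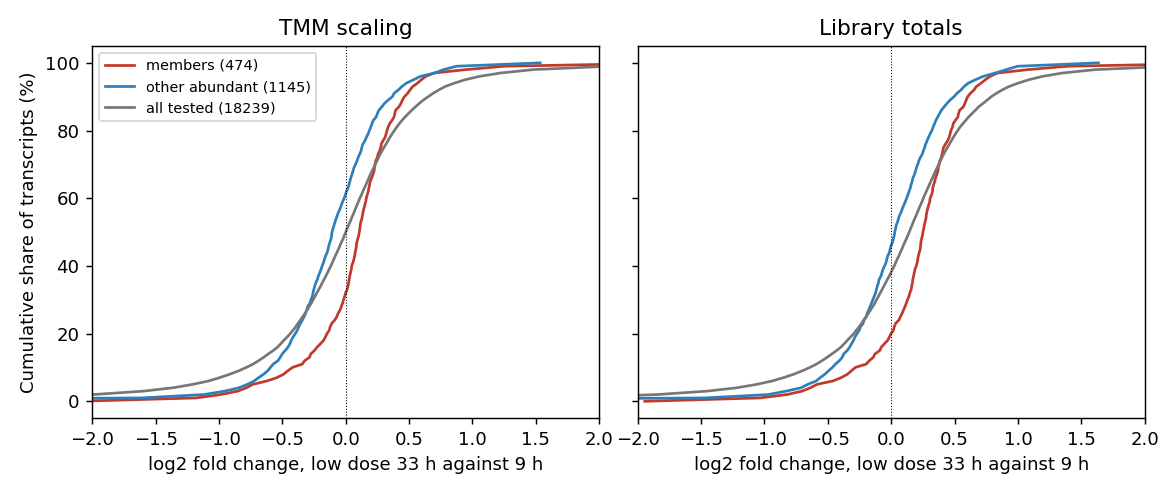
Cumulative share (%) of transcripts against the log2 fold change between low dose livers at 33 h and at 9 h, with TMM scaling (left) and library totals (right), for the members, the other abundant and all tested transcripts (values beyond -2 and 2 not drawn). The members' median is 0.11 with TMM and 0.25 with library totals, to the right of the other abundant transcripts (-0.11 and 0.03) in both panels.

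Among all abundant transcripts, the response to the high dose and the later change in the low dose, which come from different animals, ran in parallel across much of the range. In the 260 transcripts with an R33 under 0.5, 4.23% rose and 35.4% fell in low dose livers between 9 h and 33 h. At an R33 of 1 to 1.5, 16.1% of 386 rose and 13.0% fell. At 1.5 to 2, 23.1% of 290 rose and 8.28% fell, and at 2 to 3, 30.6% of 147 rose and 12.9% fell. At 3 or more, 27.7% of 47 rose and 19.1% fell. Across the 1619 abundant transcripts, log2 R33 and the low dose log2 fold change had a Pearson r of 0.33 and a Spearman rho of 0.36. Within the 474 members the values were 0.07 and 0.08. The members were cut at an R33 of 1.5, and a narrower range by itself lowers a correlation, so no conclusion is drawn. Their median low dose ratio to vehicle at 33 h was 1.36 at an R33 of 1.5 to 2 and 1.61 at 2 to 3. It was 2.12 at 3 to 5 and 2.93 above 5, but this ratio shares its vehicle animals with R33. These correlations are across transcripts, which share libraries and scaling and are not independent replicates.

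**Figure D3:**
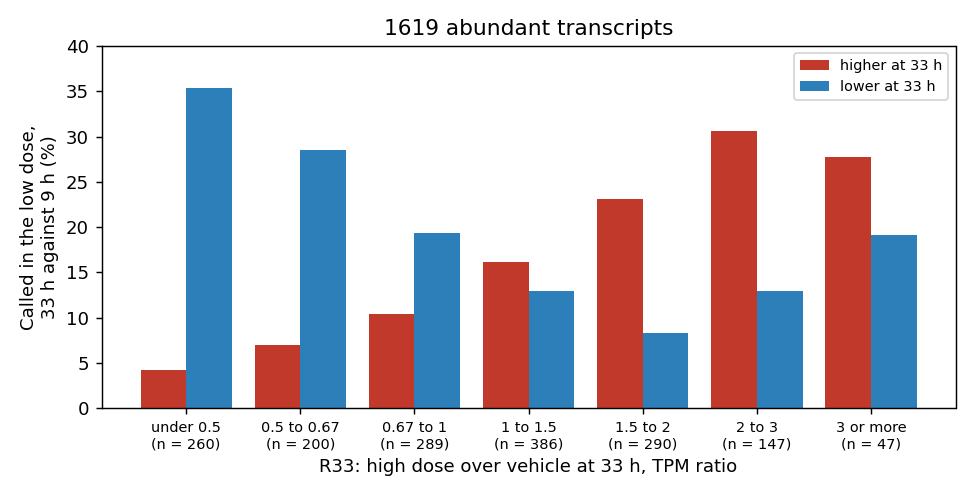
Share (%) of abundant transcripts that passed the test as higher or lower in low dose livers at 33 h than at 9 h, by class of R33, the TPM ratio of high dose to vehicle at 33 h (number of transcripts in parentheses). Rises go from 4.23% in the lowest class to 30.6% at an R33 of 2 to 3, and falls from 35.4% to 12.9% between the same classes.

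Set beside vehicle livers of the same time, the low dose gave the members a level between vehicle and high dose. At 33 h the members' median TPM ratio of low dose to vehicle was 1.46, with quartiles of 1.28 and 1.71. The median over all tested transcripts was 1.32. A ratio of 1.5 was reached by 214 members (45.1%) and by 33.1% of all tested transcripts. For 441 members the group means ran in the order vehicle, low dose, high dose. The rule had already placed high dose above vehicle, and this order was not counted over all transcripts. In 26 members the low dose mean equalled or exceeded the high dose mean, and in 7 it was at or below the vehicle mean. The 26, set apart by their low dose mean at 33 h, had a median low dose ratio of 1.92 and a median R33 of 1.69. With TMM, 152 members passed the test as higher than vehicle in low dose livers at 33 h and 5 as lower, where 14.3% and 11.4% of all tested transcripts passed. With library totals 345 passed as higher, where 36.9% of all tested transcripts passed. In TPM all 5 low dose animals lay above all 5 vehicle animals for 281 members, and for 24.5% of all tested transcripts. Between the doses at 33 h, 172 members passed as higher at the high dose and 18 as lower (TMM), where 16.9% and 16.2% of all tested transcripts passed. With library totals 351 passed as higher, where 33.9% of all tested transcripts passed, and the 18 were no longer called lower. Vehicle and high dose animals chose the members, so these counts are a description.

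Animals of a dose differed in how far the members had moved by 33 h. The median member stood at 1.4, 1.51, 1.22, 1.72 and 1.42 times the vehicle mean in low dose animals 1 to 5, and at 2.06, 2.05, 2.04, 1.82 and 1.64 times in high dose animals 1 to 5. Low dose animal 4 had the highest value of its group for 374 members and low dose animal 3 the lowest for 366. High dose animal 5 had the lowest value of its group for 317 members. The number of members above the highest vehicle animal of 33 h was 310 to 458 in low dose and 452 to 467 in high dose animals. Neither these counts nor those of the highest and lowest animals were made over other transcripts. The rule had also placed high dose means above vehicle means at 33 h, so the counts are a description only. The TMM factors had the same extremes in the low dose group, 1.23 in animal 4 and 0.978 in animal 3, and high dose animal 5 had the lowest of its group at 1.23. The part of the scaling in the differences between animals was not tested. Within groups, the median coefficient of variation of the members was 9.04% to 11.6% in the vehicle groups and both 9 h dose groups, 15.1% in low dose and 15.6% in high dose livers at 33 h. In the other abundant transcripts it was 9.72% to 12.4%, 11.2% and 16.1% in the same order. The wider spread at the high dose was thus shared by both sets.

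**Figure D4:**
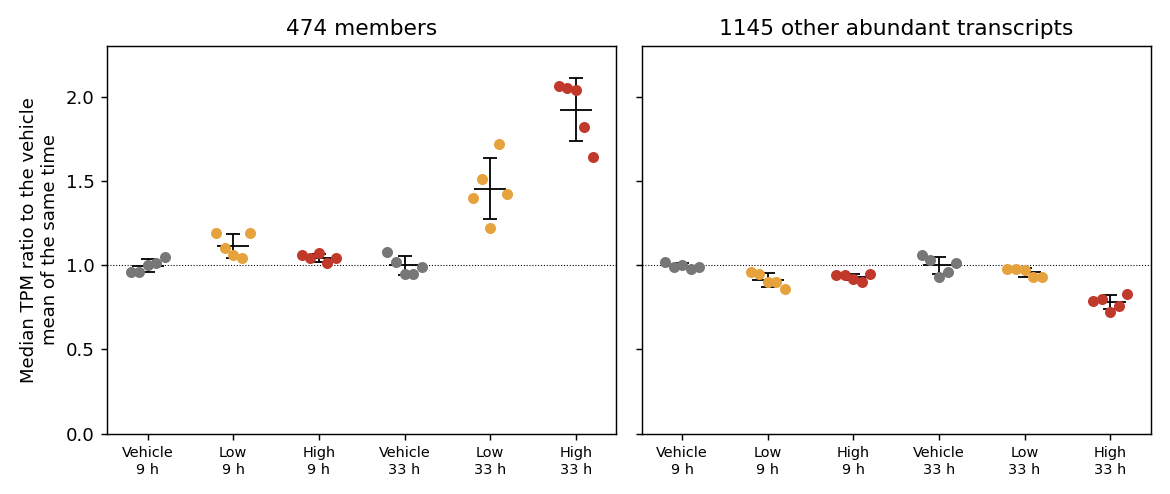
Median over transcripts of the TPM ratio to the vehicle mean of the same time, for the 474 members (left) and the 1145 other abundant transcripts (right), 1 point per animal, with the group mean as a line and the SD as bars (n = 5). The members' median runs from 1.22 to 1.72 in low dose and from 1.64 to 2.06 in high dose animals at 33 h, while the other abundant transcripts run from 0.72 to 0.83 in high dose animals.

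The time courses of the members were of several kinds, and not all were late. At 9 h, 103 members passed the test (TMM) as higher than vehicle in low dose livers and 11 as lower, where 13.5% and 11.2% of all tested transcripts passed. In high dose livers of 9 h 113 passed as higher and 15 as lower, against 13.5% and 12.8%. The vehicle animals, and for R9 the high dose animals, also chose the members. The median R9 was 1.04. In 174 members R9 was at or under 1, in 251 it was above 1 and up to 1.5, and in 49 it was above 1.5, so those 49 already stood above vehicle at the first time. The same classes differed in their low dose calls between the times. Calls were not counted by R9 among other transcripts, so whether this difference is particular to the members was not tested. Of the 174 members with an R9 at or under 1, 66 rose and 1 fell, with a median log2 fold change of 0.18. Of the 251 in the middle class, 58 rose and 18 fell. Of the 49 with an early high dose ratio above 1.5, 1 rose and 33 fell, with a median of -0.67. These 49 stood at a median of 2.12 times vehicle in low dose livers at 9 h and 1.84 times at 33 h, against 1.99 and 2.86 times in high dose livers. At both times 50 members were at least 1.5 times vehicle in low dose livers.

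The low dose rise was greatest for ENSCPOT00000045579.1, which is 651 bases long. Its TPM in low dose animals was 120, 78.9, 100, 105 and 108 at 9 h and 924, 975, 792, 571 and 494 at 33 h. Every low dose liver at 33 h was above every one at 9 h. A passed test and no overlap between the times were conditions for picking each of the 4 identifiers. Both are therefore given as description here and in the next 3 paragraphs. The log2 fold change was 2.67 ± 0.38 (SE, edgeR adjusted p = 8.78e-06). In vehicle animals it was at 44.7 to 73.6 TPM at 9 h and at 240, 47.1, 57.1, 75 and 89.8 TPM at 33 h, so that vehicle animal 1 stood above the others. In high dose livers it was at 55.0 to 88.4 TPM at 9 h and at 810, 629, 182, 310 and 566 TPM at 33 h. High dose animal 3 was thus below the highest vehicle animal, and the low dose mean of 751 ± 212 exceeded the high dose mean of 500 ± 252 TPM (SD, n = 5 each).

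ENSCPOT00000004231.3, of 889 bases, followed a similar course with a higher level at the high dose. It measured 192, 143, 144, 77.0 and 106 TPM in low dose animals at 9 h and 996, 1162, 705, 842 and 790 TPM at 33 h. No values overlapped, and the log2 fold change was 2.55 ± 0.29 (SE, edgeR adjusted p = 5.17e-07). It was at 27.3 to 73.8 TPM in vehicle livers at 9 h and 51.9 to 156 at 33 h. In high dose livers it was at 65.0 to 132 TPM at 9 h and at 1641, 1451, 884, 1204 and 1099 TPM at 33 h. Its R33 of 13.32 was the highest among the members, and its levels at the low and the high dose overlapped at 33 h.

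ENSCPOT00000024706.2, of 762 bases, showed the largest low dose fall between the times. Low dose animals had 255, 316, 268, 499 and 554 TPM at 9 h and 94.3, 73.9, 62.9, 148 and 151 TPM at 33 h, without overlap. The log2 fold change was -2.11 ± 0.34 (SE, edgeR adjusted p = 4.02e-05). Its highest levels were in high dose livers at 9 h, at 1074, 1156, 1765, 1161 and 837 TPM. By 33 h those of the high dose were at 140, 158, 402, 499 and 143 TPM, above every vehicle animal of that time (70.9 to 88.1 TPM). Vehicle animals also differed between the times, being at 111 to 232 TPM at 9 h. This member met the rule through an R33 of 3.35 while its R9 was 6.95, so its peak was early.

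ENSCPOT00000040675.1, of 3337 bases, came next among low dose falls without overlap of animals. Low dose animals had 253, 236, 216, 234 and 285 TPM at 9 h and 86.6, 79.0, 54.1, 124 and 105 TPM at 33 h, and no values overlapped. The log2 fold change was -1.72 ± 0.17 (SE, edgeR adjusted p = 4.35e-08). Vehicle livers held 50.9 to 78.9 TPM at 9 h and 47.7 to 82.1 TPM at 33 h. High dose livers held 301, 388, 268, 301 and 382 TPM at 9 h and 128, 128, 204, 153 and 184 TPM at 33 h, in both cases above every vehicle animal of the same time.

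**Figure D5:**
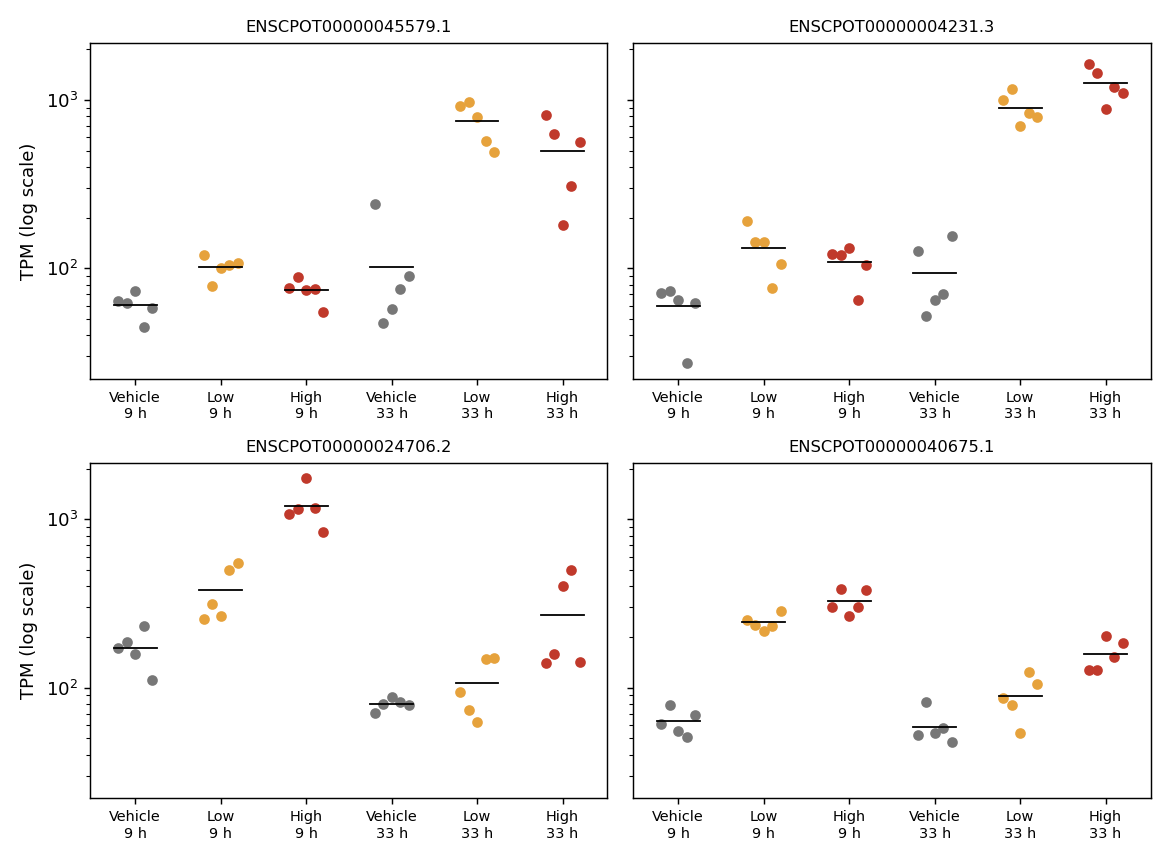
TPM on a log scale of the 4 members given by identifier, 1 point per animal, with the group mean as a line. The upper pair was highest in dosed livers at 33 h, with low dose means of 751 and 899 TPM, and the lower pair was highest in high dose livers at 9 h, with means of 1199 and 328 TPM.

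The 10 most abundant members had an R33 of 1.54 to 4.17, and some rested on few animals or on short sequence. The member with the highest vehicle level, of 78 bases, measured 11617 to 14104 TPM in vehicle livers at 33 h and 18743, 18109, 28252, 17774 and 15050 TPM in high dose livers. Its mean effective length was 12.6 bases, so a mean of 3419 counts in vehicle livers at 33 h gave a mean level of 12687 TPM. Its R33 of 1.54 was 1.37 without high dose animal 3. It did not pass the test in low dose livers (log2 fold change -0.08 ± 0.11, SE, edgeR adjusted p = 0.657). Without it, the members held 8.73 ± 0.437% of TPM in vehicle and 18.3 ± 2.55% in high dose livers at 33 h (SD, n = 5 each).

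The second, of 1784 bases, rested on far more counts, a mean of 95488 in vehicle livers at 33 h. It measured 2713, 2451, 2779, 2579 and 2680 TPM there and 4526, 4460, 4126, 4199 and 3735 TPM in high dose livers, without overlap. Its R33 was 1.59, and its log2 fold change after TMM 0.04, which shows the scaling effect in a single transcript. In low dose livers at 33 h it was at 3270, 3789, 3327, 4000 and 3477 TPM. The low dose mean of 3573 TPM lay between the means of the other groups, while the values of the 2 doses overlapped. It did not pass the test in low dose livers against 9 h (0.05 ± 0.10, SE, edgeR adjusted p = 0.746).

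The third, of 1103 bases, was a member through 1 animal. High dose livers at 33 h held 922, 1617, 15692, 3835 and 1321 TPM of it and vehicle livers 462, 4446, 3175, 2579 and 893 TPM. Without high dose animal 3 its ratio was 0.83. Its level varied widely in other groups too, as from 992 to 5634 TPM in vehicle livers at 9 h.

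The fifth, of 132 bases, had higher means than vehicle at both times and both doses. Vehicle livers held 1279 to 1632 TPM at 9 h and 1241 to 1633 TPM at 33 h, high dose livers 2623 to 3811 and 4299 to 7484 TPM. Low dose livers held 2432 to 4357 TPM at 9 h and 4444, 3159, 1497, 4611 and 3085 TPM at 33 h, where animal 3 lay within the vehicle range. Its effective length was also short, at a mean of 22.9 bases. The sixth, of 261 bases, was the 1 member above 1000 TPM that rose in low dose livers between the times, from 1668, 1980, 1603, 1027 and 1299 to 2304, 3397, 2529, 2976 and 2810 TPM (log2 fold change 0.73 ± 0.14, SE, edgeR adjusted p = 0.000422). Its low dose mean of 2803 ± 420 TPM at 33 h was above its high dose mean of 2383 ± 408 TPM (SD, n = 5 each).

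Members with very large R33 were few and often uneven among animals. After ENSCPOT00000004231.3, the next, a transcript of 795 bases with an R33 of 13.01, measured 414, 244, 913, 1659 and 360 TPM in high dose livers and 19.1 to 107 TPM in vehicle livers at 33 h. Its ratio was 8.75 without high dose animal 4. Low dose livers held 67.1, 66.0, 322, 274 and 105 TPM of it at 33 h, and it did not pass the test against 9 h (1.13 ± 0.61, SE, edgeR adjusted p = 0.190). The next in order, of 300 bases and an R33 of 13.00, was more even, at 559, 737, 630, 510 and 326 TPM in high dose and 31.8 to 54.5 TPM in vehicle livers. In low dose livers at 33 h it ran from 76.2 to 380 TPM. The other members with the 10 largest ratios had an R33 of 5.48 to 7.35. One of them, of 531 bases and an R33 of 5.97, passed the level bound through 2 vehicle animals of 9 h, at 125 and 296 TPM. The other 8 vehicle animals were at 8.9 to 21 TPM. Its mean in high dose livers at 33 h was 88.3 ± 29.5 TPM, beside a vehicle mean of 92.5 ± 124 TPM at 9 h (SD, n = 5 each).

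Members were shorter than the other abundant transcripts, a property the rule did not use directly. Their median length was 1125 bases, with quartiles of 631 and 1745, against 1596 bases with quartiles of 964 and 2407 in the other 1145. Of 163 abundant transcripts under 500 bases 68 (41.7%) were members, of 353 from 500 to 1000 bases 141 (39.9%), of 615 from 1000 to 2000 bases 175 (28.5%), and of 488 at 2000 bases or more 90 (18.4%). Median R33 in these classes of abundant transcripts was 1.37, 1.28, 1.01 and 0.83. Over all tested transcripts it was 1.63, 1.67, 1.64 and 1.57, so the gradient was less steep outside the abundant ones. In the low dose comparison, 23.5% of members under 500 bases rose and 7.35% fell. Of those at 2000 bases or more, 31.1% rose and 13.3% fell. Their median log2 fold changes were 0.10 and 0.09. Calls by length were not counted over all tested transcripts.

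Membership moved more with the scaling than with any single animal. Leaving out 1 vehicle or high dose animal in turn gave 451 to 487 members, and 399 of the 474 (84.2%) were members in each of these 20 selections. Without high dose animal 3 of 33 h 26 members were lost, the most of any single animal. With group medians in place of means 443 of the 474 remained among 461, and with CPM in place of TPM all 449 selected were members.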

How the data were processed

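Liver RNA of 30 animals was measured with poly-A enriched, stranded, paired-end libraries (labels' protocols). Quantification used kallisto 0.42.4, per the submitters' processing notes; the transcript set is not given in the sources used here. The deposited tables hold estimated counts, which carry fractions and no scaling between libraries, and TPM values, which the authors scaled to a fixed total. Reads shared between transcripts are divided by the estimate. Dose and duration labels gave the groups; replicates were taken as separate animals from the series design, and their numbers only name them.

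The reference table (37416 genes, assembly mCavPor4.1) matched 0 of the identifiers, so planned gene lists, marker lists and sequences were not used. Members and tests were chosen with earlier results of these data known. Estimated counts were rounded and fitted with edgeR 4.0.16 (R 4.3.3): filterByExpr (minimum count 10, minimum total 15), TMM factors, 1 coefficient per group over all animals, robust quasi-likelihood (24 residual degrees of freedom before moderation), and Benjamini-Hochberg adjustment at 0.05. Each standard error was derived from the fold change and its F statistic. The rule for identifiers took the 2 largest rises and 2 largest falls of members in low dose livers at 33 h against 9 h, among those past the threshold and without overlap of animals; the most abundant members and those of largest R33 were described by rank after their values were seen, as were classes of level, length, R9 and R33. On simulated counts for this comparison (16279 transcripts), 38.8% of 1.5-fold, 59.7% of 2-fold and 93.9% of 4-fold changes were recovered. Of 132 calls, 4 were false. The simulation took levels and spread from vehicle livers and changed few transcripts. The members varied more in low dose livers at 33 h, and far more transcripts were called, so these rates may not carry over. Alternatives used DESeq2 1.42.0 and limma 3.58.1, other scalings and filters, and leaving out animals.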

Additional observations from a re-analysis of the deposited data

Results flagged for a closer look

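In 102 groups of 5 animals examined among the summed values, the 4 members given by identifier and the 10 most abundant members, 1 animal stood far from the rest in 10. Chance alone gives about 1 in 20 groups such a gap. The members' share of TPM in high dose livers at 9 h was 11.7% in animal 1 and 11.1% to 11.2% in the other 4. In vehicle livers at 33 h, ENSCPOT00000045579.1 was at 240 TPM in animal 1 (47.1 to 89.8 in the others) and ENSCPOT00000040675.1 at 82.1 TPM in animal 2 (47.7 to 57.2). ENSCPOT00000004231.3 was at 27.3 TPM in vehicle animal 4 at 9 h (62.6 to 73.8 in the others).

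In high dose animal 3 of 33 h, 3 of the 10 most abundant members stood apart. The first was at 28252 TPM (15050 to 18743 in the others), the third at 15692 TPM (922 to 3835) and the sixth at 1662 TPM (2507 to 2666). In high dose animal 4 of 9 h the fourth was at 2189 TPM (2506 to 2628) and the tenth at 599 TPM (1155 to 1220). The tenth was also at 1193 TPM in low dose animal 1 of 9 h (1095 to 1114).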

How the results depend on the processing

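The number of members depended most on the scaling and the level bound. It was 103 with TMM-scaled CPM, 190 with an R33 of at least 2, 1264 with a vehicle mean of at least 20 TPM and 224 with at least 100 TPM, and 451 to 487 without 1 animal. Members called between low dose livers at 33 h and 9 h numbered 177 and became 295 with limma on log2(TPM + 0.1), of which 268 were higher and 27 lower. That setting changed the test, the unit and the scaling together. Library totals in edgeR gave 220 calls, 186 higher. Those called lower were 34 with library totals. DESeq2, limma voom, median-of-ratios factors, other filters and a fit of the 10 low dose animals kept each count within 1.5 times. Leaving out 1 low dose animal gave 156 to 179 calls in all, 103 to 130 higher and 45 to 57 lower. The members' summed level, high dose over vehicle at 33 h, was 2.03 in TPM and 1.35 after TMM (1.95 to 2.14 without 1 animal). For the low dose, 33 h over 9 h, it was 1.23 in TPM and 1.06 after TMM (1.18 to 1.28 without 1 animal). The 4 members given by identifier kept direction and call in every alternative run. Sums per gene were not run, since no table pairs transcripts with genes. No paired analysis was run, since each animal gave 1 library at 1 time and dose and the labels match no animals to one another. Short transcripts have few effective bases behind their TPM.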
